A study of Saccharomyces cerevisiae with 18 samples.

Results

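The cytosolic ribosome of *Saccharomyces cerevisiae* was followed through the probe sets of its protein genes in 5 strains with altered base excision repair and in wild type. Members were the genes whose name begins with *RPL* (large subunit) or *RPS* (small subunit) followed by a number and an optional A or B, and the stalk genes *RPP0*, *RPP1A*, *RPP1B*, *RPP2A* and *RPP2B*, where a probe set carried the name of that gene alone. Of 137 such genes in the RefSeq annotation, 80 had a probe set of their own, 54 were represented only on probe sets shared with another gene, and 3 were not analysed here. For the 21 members with more than 1 probe set the one with the highest mean signal was taken. The 80 members comprised 42 large subunit, 33 small subunit and 5 stalk genes, out of 5656 genes with a probe set of their own.

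RNA from 18 cultures, 3 per strain, was hybridized to Affymetrix Yeast Genome S98 arrays. The strains were WT/pMAG (the wild type host expressing the 3-methyladenine DNA glycosylase Mag from a galactose-driven plasmid), Δapn1 (the abasic endonuclease gene *APN1* disrupted by *HIS3*, with the empty vector; the description field of its replicates 2 and 3 names apn2 and apn3, while their other labels name apn1, which was followed), Δapn1/pMAG, Δapn1/pAPN1 (with Apn1 supplied from a second plasmid), Δapn1/pMAG/pAPN1, and wild type with the empty vector. All strains derived from BGY111, a *MATa* GAL+ strain with mutant alleles of *HIS3*, *LEU2*, *URA3*, *TRP1* and *CAN1*, carried the *URA3* vector with or without *MAG*, and were grown in galactose medium lacking uracil to the same cell density with no damaging agent added. Whether a strain was carried as more than 1 clone is not given in the sources used here.

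A yeast ribosome is built from a large and a small subunit, and most of its proteins are encoded by a pair of duplicated genes, an A and a B copy, whose products are nearly or fully identical. The genes are among the most strongly transcribed in growing cells, are driven through Rap1, Fhl1, Ifh1 and Sfp1 under the control of TOR and protein kinase A, and as a class are lowered together in the environmental stress response. Their signals here are log2 values from robust multi-array average (RMA), which sets all arrays to a shared distribution, so a smaller share of the transcript pool and a smaller amount per cell cannot be told apart. Because copies are so alike, the suffix of a probe set matters: 50 members had a plain _at probe set, 16 an _f_at probe set (probes shared within a family of similar genes) and 14 an _i_at probe set (fewer probes than usual are unique). Where probes are shared, a part of the signal may come from the sister copy.

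The arrays were checked before the comparisons. *MAG1* read 6.14, 1.48 and 6.91 in WT/pMAG, 7.17, 2.88 and 1.82 in Δapn1/pMAG, 3.80, 2.83 and 1.82 in Δapn1/pMAG/pAPN1, and 0.89 to 1.41 in the strains without pMAG. *MAG1* was thus close to the level without the plasmid on WT/pMAG replicate 2 and low on several arrays of the other pMAG strains, so the labels of these arrays are open to doubt; whether they carried and expressed pMAG was not tested, and each pMAG comparison rests on the labels. *APN1* read 2.81 to 3.15 in Δapn1, 3.64 to 4.38 in Δapn1/pMAG and 7.27 to 7.96 in Δapn1/pAPN1, against 1.14 to 1.88 in wild type; the position of its probes in the disrupted gene is not given in the sources used here, and the signal therefore does not check the Δapn1 label. The array labelled Δapn1/pMAG/pAPN1 replicate 1 read 4.57 for *APN1* and 5.94 for the plasmid marker *LEU2*, against 7.48 and 7.26 (*APN1*) and 9.95 and 9.15 (*LEU2*) on replicates 2 and 3. Δapn1/pMAG replicate 1 had an *ACT1* 5′ signal 7.78 log2 units below the 3′ signal, where the other 17 arrays lay 0.65 to 1.82 below. By the mean of 69 small nuclear, nucleolar and ribosomal RNA probe sets the arrays fell into a high set of 7 and a low set of 11, which no source names as a batch; WT/pMAG, Δapn1 and wild type each had 2 arrays in the high set, Δapn1/pMAG had 1, and both pAPN1 strains had none.

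The ribosomal protein genes were high on every array. Their median log2 signal per array lay between 8.09 and 8.92, while the median of all probe sets lay between 1.63 and 1.72. Mean signals of members over the 18 arrays ran from 4.25 (*RPL7B*) to 11.21 (*RPS26A*), with 8 members under 6, 39 from 6 to 9 and 33 at 9 and over. Since probe sets differ in how well they hybridize, these means do not order the transcripts by abundance. The highest probe sets were those of *RPS26A* and *RPS21A*, both of the small subunit, and *RPP0*, the protein that anchors the acidic stalk to the large subunit; the lowest were *RPL7B*, *RPS9A* and *RPL9A*.

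**Figure D1:**
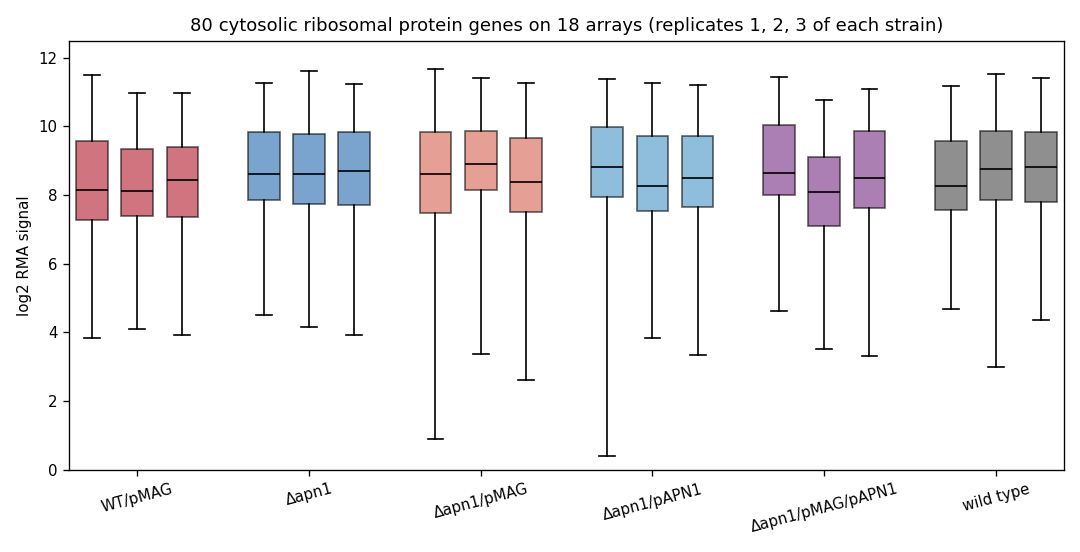
Log2 RMA signal of the 80 ribosomal protein genes on each of the 18 arrays (y axis), with replicates 1, 2 and 3 of each strain from left to right; boxes span the quartiles, lines mark the median, and whiskers reach the lowest and highest member. Medians of WT/pMAG (8.16, 8.11 and 8.43) sit in the lower part of the range but overlap with wild type replicate 1 (8.26) and Δapn1/pMAG/pAPN1 replicate 2 (8.09), and the longest lower whiskers belong to replicate 1 of Δapn1/pMAG and of Δapn1/pAPN1.

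As a group the members had their lowest strain mean in WT/pMAG, within overlapping ranges. The median of members was 8.16, 8.11 and 8.43 on the WT/pMAG arrays, against 8.26, 8.76 and 8.82 on the wild type arrays, so the strains overlapped through replicate 3 of WT/pMAG and replicate 1 of wild type. Strain means of these array medians were 8.23 ± 0.17 in WT/pMAG, 8.64 ± 0.06 in Δapn1, 8.63 ± 0.27 in Δapn1/pMAG, 8.54 ± 0.27 in Δapn1/pAPN1, 8.41 ± 0.29 in Δapn1/pMAG/pAPN1 and 8.61 ± 0.30 in wild type (SD, n = 3 each). The array with the lowest median was Δapn1/pMAG/pAPN1 replicate 2, with 8.09, on which 78 of the 80 members lay below their own median over the arrays.

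In WT/pMAG set against wild type, 73 of 80 members had a fitted difference below 0, with a median of −0.28 on the log2 scale (0.826 of the wild type level). Over all 6504 probe sets of 1 gene the median was 0.01 and 48.7% lay below 0; among the 509 probe sets with a mean signal of 6 or more, where most members are found, the median was −0.17 and 66.4% lay below 0. The lower level was seen in each class, with 38 of 42 large subunit genes (median −0.28), 30 of 33 small subunit genes (−0.28) and 5 of 5 stalk genes (−0.23) below 0. No member had an adjusted p under 0.05 (limma, Benjamini-Hochberg over all 6504 probe sets, of which 0.0923% had one), and 4 had an unadjusted p under 0.05 (10.5% of all probe sets had one). The group median was −0.37 within the high small RNA set (2 arrays against 2) and −0.09 within the low set (1 array against 1), and between −0.40 (without wild type replicate 1) and −0.19 (without wild type replicate 2) when an array was left out. The low set arrays were WT/pMAG replicate 2, with *MAG1* at 1.48, and wild type replicate 1, with the lowest wild type median (8.26). These features cannot be told apart in that value. Without WT/pMAG replicate 2 the group median was −0.26, and 4 members were lower and 1 higher at the thresholds of the study given next. The share of all probe sets past them without that array was not computed. The part of the small RNA set in the result was not tested beyond these within-set values.

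At the thresholds of the study (unadjusted p below 0.05 together with a change of 1.5-fold or more), 3 members were lower and 0 higher in WT/pMAG, which compares with 3.86% of all probe sets lower and 2.14% higher. The 3 were *RPS29A*, *RPL22A* and *RPL17B*.

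*RPS29A* (YLR388W) encodes a small zinc-binding protein of the small subunit head. Its signal was 5.62, 7.31 and 8.86 in WT/pMAG, against 9.24, 9.60 and 9.78 in wild type. All WT/pMAG arrays were below all wild type arrays, although the WT/pMAG replicates were spread over more than 3 log2 units. In the other strains it lay between 8.31 and 9.89. The difference in WT/pMAG was −2.28 (SE 0.56, adjusted p = 0.15), and it was −3.08 without WT/pMAG replicate 3 and −1.46 without replicate 1. *RPS29A* passed the thresholds in each of the 34 alternative settings, but its probe set is an _f_at one. Many of these settings leave out an array of a strain not compared, which cannot change the difference of −2.28.

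*RPL22A* (YLR061W) encodes a protein of the solvent side of the large subunit. It read 7.61, 9.19 and 9.88 in WT/pMAG, against 9.96, 10.43 and 10.29 in wild type, and replicate 3 of WT/pMAG was only just below the lowest wild type array. The difference was −1.33 (SE 0.42, adjusted p = 0.272), and −0.69 without WT/pMAG replicate 1. Within the low small RNA set it was −0.77 and did not pass the thresholds.

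*RPL17B* (YJL177W), a protein that lines the nascent peptide exit tunnel, read 6.15, 5.59 and 7.96 in WT/pMAG, against 7.83, 8.69 and 9.03 in wild type. The groups overlapped, since WT/pMAG replicate 3 was above wild type replicate 1. The difference was −1.95 (SE 0.76, adjusted p = 0.382), and it missed the thresholds without replicate 1 or 2 of WT/pMAG (−1.74 and −1.46) and without replicate 2 or 3 of wild type (−1.86 and −1.69). The other 2 probe sets of this gene gave −1.30 and −1.36. Signal of *RPL17B* was uneven in most strains, with 9.01, 7.62 and 6.64 in Δapn1/pMAG and 8.85, 6.18 and 6.68 in Δapn1/pAPN1.

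**Figure D2:**
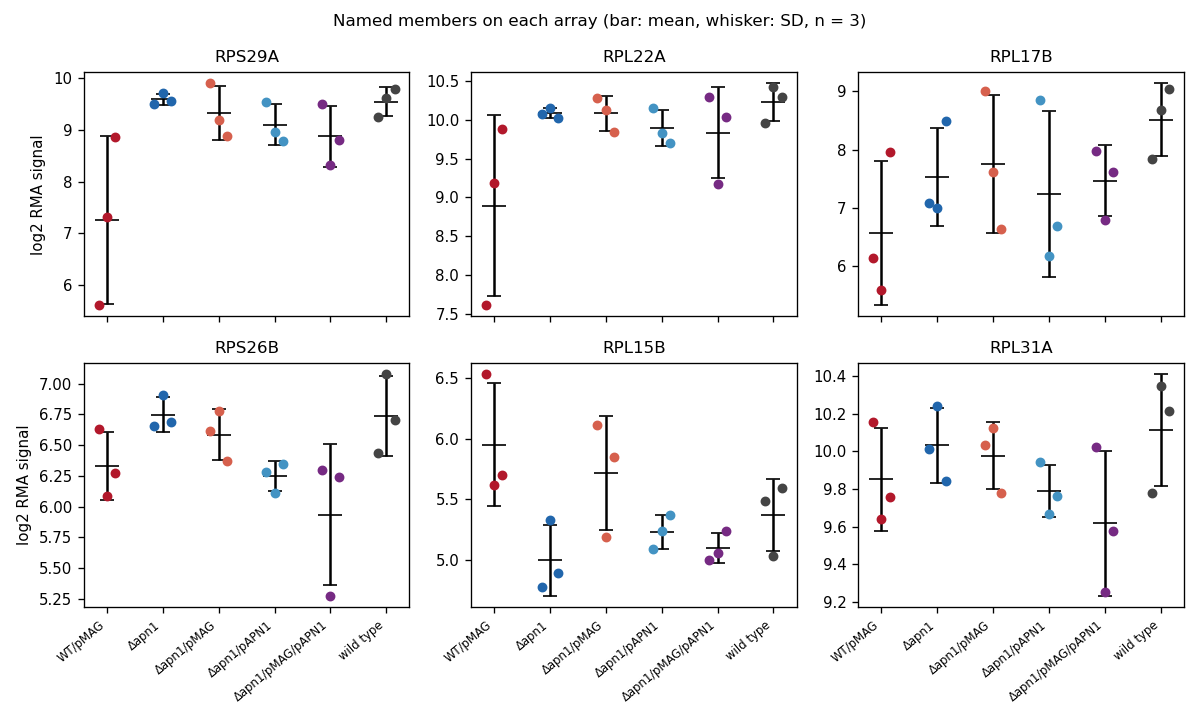
Log2 RMA signal of 6 members on each array (y axis), by strain (x axis); points are arrays (replicates 1, 2 and 3 from left to right), horizontal bars the mean and whiskers the SD of 3 arrays. RPS29A and RPL22A are low in WT/pMAG with a wide spread (5.62 to 8.86 and 7.61 to 9.88), RPL17B is uneven in most strains, RPS26B is lowest on Δapn1/pMAG/pAPN1 replicate 2 (5.27), and RPL15B is highest on WT/pMAG replicate 1 (6.54).

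Without regard to the size of the difference, 18 members had all 3 WT/pMAG arrays below all 3 wild type arrays and 1 had them all above. Over all probe sets 7.38% were separated downwards and 6.32% upwards. Large subunit genes made up 12 of the 18, and besides *RPS29A* and *RPL22A* the differences of these members ran from −1.16 (*RPL9A*) to −0.28 (*RPL13A*). Both copies of *RPL6* and both copies of *RPS29* were among them. *RPL6B*, for example, read 7.27, 9.08 and 8.63 in WT/pMAG, against 9.16, 9.15 and 9.13 in wild type (difference −0.82, adjusted p = 0.51), and *RPS27A* read 7.58, 5.83 and 7.30 in WT/pMAG, against 7.78, 7.60 and 7.78 in wild type (difference −0.81, adjusted p = 0.502). In both, 1 WT/pMAG array lay more than 1 log2 unit below the other WT/pMAG arrays.

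The member with all WT/pMAG arrays above wild type was *RPL15B*, which encodes a protein of the large subunit core. It read 6.54, 5.62 and 5.70 in WT/pMAG, against 5.48, 5.03 and 5.59 in wild type. The difference was 0.58 (SE 0.26, adjusted p = 0.454), just under 1.5-fold. A probe set that names both *RPL15A* and *RPL15B* went the other way and was lower at the thresholds of the study. It read 5.35, 8.15 and 9.22 in WT/pMAG, against 8.71, 9.43 and 9.42 in wild type (difference −1.62, SE 0.66, limma adjusted p = 0.46). *RPL15A* alone differed by 0.01. *RPL15B* was also the member least like the rest: its correlation over the 18 arrays with the median of the other members was −0.38, whereas 55 of 80 members had a correlation over 0.5 and the highest was that of *RPL27A* (0.863). These correlations share the arrays and their normalization and are given as a description.

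In Δapn1 set against wild type, no member passed the thresholds in either direction (0.231% of all probe sets were higher and 0.2% lower), none had an unadjusted p under 0.05 (1.29% of all probe sets), and the median of members was 0.03, with 33 of 80 below 0 (49.4% of all probe sets). The median was −0.10 within the high small RNA set and 0.24 within the low set. All 3 arrays lay above the wild type arrays in 3 members, *RPP2B*, *RPS22A* and *RPS28B*, by 0.11 to 0.22, and below them in 1, *RPL22B* (difference −0.33), where 2.98% of all probe sets lay above and 3.2% below. All 5 stalk genes lay above 0, by 0.01 to 0.20. The members with the smallest p were *RPS9A*, a protein tied to decoding accuracy (−0.35), *RPL15B* (−0.37) and *RPL17B* (−0.99), each with an adjusted p of 1.

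In Δapn1/pMAG, again 0 members passed in either direction (2.03% of all probe sets were higher and 1.35% lower) and 0 had an unadjusted p under 0.05 (6.93%) or an adjusted one (0.108%). The median was −0.02 and 43 of 80 lay below 0, as did 45.9% of all probe sets. It was −0.03 within the high small RNA set and 0.26 within the low set. In the high set the only Δapn1/pMAG array was replicate 1, with its low *ACT1* 5′ signal. *RPS15*, a small subunit protein needed for export of the precursor particle, read 9.38, 9.60 and 9.43 in Δapn1/pMAG, against 8.60, 9.12 and 9.36 in wild type. It was the 1 member whose groups did not overlap (6.23% of all probe sets lay above wild type and 4.63% below), and its difference was 0.44 (SE 0.24, limma adjusted p = 0.762). *RPL10*, which joins the large subunit last and is needed for subunit joining, read 9.75, 10.08 and 9.97 in Δapn1/pMAG, against 10.06, 10.40 and 10.27 in wild type (difference −0.31, SE 0.18, adjusted p = 0.788). Without Δapn1/pMAG replicate 2, which leaves replicate 1 with its low *ACT1* 5′ signal as 1 of 2 arrays, 7 members were lower and 1 higher (2.38% and 3.11% of all probe sets), with a median of −0.12 and 0 adjusted calls. The 7 included *RPL7A*, *RPL13A*, *RPL17A* and *RPP2A*, which had isolated low readings on that array.

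In Δapn1/pAPN1, 0 members passed in either direction, against 2.51% of all probe sets higher and 0.8% lower, and 0 had an unadjusted p under 0.05 (6.78%) or an adjusted one (0.0154%). The median of members was −0.05 and 45 of 80 lay below 0 (44.4% of all probe sets); it was 0.20 within the low small RNA set. All 3 arrays lay above wild type in 9 members (12% of all probe sets) and below it in 1 (5.35%). The 9 were *RPL3*, *RPL5*, *RPL6B*, *RPL9B* and *RPL16B* of the large subunit, *RPS0B*, *RPS22A* and *RPS28B* of the small subunit and the stalk gene *RPP2A*, with differences of 0.26 to 0.61. *RPS26B* had the smallest p, with 6.28, 6.11 and 6.35 in Δapn1/pAPN1, against 6.43, 7.08 and 6.70 in wild type, a separation without overlap but of only −0.49 (SE 0.24, adjusted p = 0.753). *RPS31*, which is made as a fusion with ubiquitin, had a fitted difference of 1.00 (SE 0.51, adjusted p = 0.785), but it read 10.29, 9.98 and 9.83 in Δapn1/pAPN1, against 7.92, 8.96 and 10.21 in wild type, and the groups overlapped. *RPL9B* differed by 0.61 (SE 0.34, adjusted p = 0.813).

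In Δapn1/pMAG/pAPN1, 1 member was lower and 0 higher at the thresholds (1.58% and 1.81% of all probe sets), 0 had an adjusted p under 0.05 (0.0154% of all probe sets), and 2 had an unadjusted p under 0.05 (7.52%). The median was −0.20 and 64 of 80 lay below 0 (44.4% of all probe sets). *RPS26B* (YER131W), one copy of a protein at the mRNA exit channel of the small subunit, read 6.30, 5.27 and 6.24 in Δapn1/pMAG/pAPN1, against 6.43, 7.08 and 6.70 in wild type. It was the 1 member whose groups did not overlap (6.7% of all probe sets lay below wild type and 7.44% above), and the difference was −0.80 (SE 0.24, adjusted p = 0.379); it was −0.47 and missed the fold threshold without replicate 2. *RPL31A*, near the exit tunnel, followed with −0.50 (SE 0.21, adjusted p = 0.61), and then *RPL29* with −0.52 (SE 0.26, adjusted p = 0.676).

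This strain's result turned on its own arrays. Without the array labelled replicate 1, whose plasmid markers were low, the median of members was −0.36, 72 of 80 lay below 0, and 11 members were lower and 0 higher at the thresholds, where 1.74% of all probe sets were lower and 1.66% higher; the 11 were *RPL15A*, *RPL24B*, *RPL29*, *RPL31A*, *RPL32*, *RPL33A*, *RPS12*, *RPS21A*, *RPS26B*, *RPS27B* and *RPS29B*, with differences of −0.98 to −0.62 and adjusted p of 0.442 or more. Without replicate 2 the median was 0.04 and the count 0. The 2 remaining arrays in the first case include replicate 2, the array with the lowest level of members in the series. All 3 arrays of this strain were in the low small RNA set, and against the 1 wild type array of that set the median was 0.07.

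**Figure D3:**
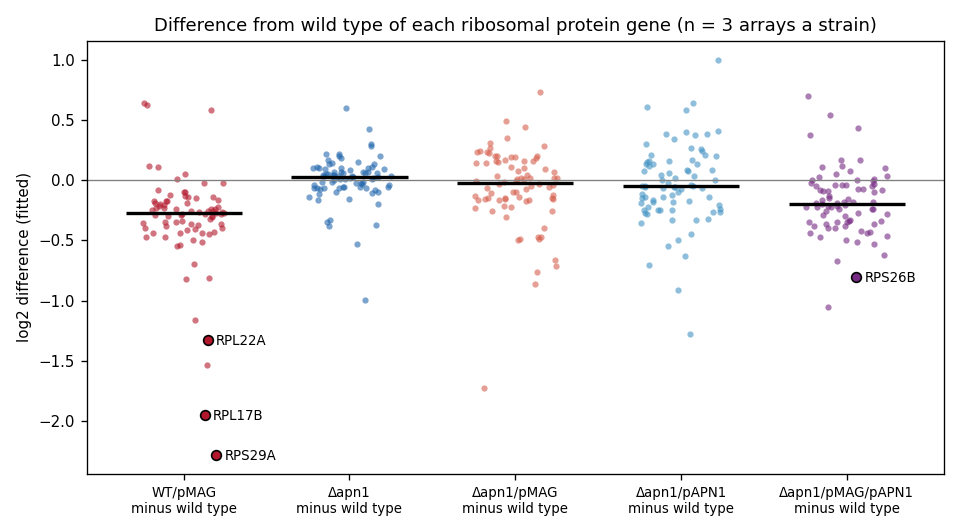
Fitted log2 difference from wild type (y axis) of each of the 80 members in the 5 strains (x axis); points are members, black bars their medians, and outlined, named points those past the thresholds of the study. Medians lie at −0.28, 0.03, −0.02, −0.05 and −0.20 from left to right, and all 4 outlined members are below 0.

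Expression of pMAG could be compared in 3 backgrounds (wild type, Δapn1 and Δapn1/pAPN1), whose arrays do not overlap, and the mean of the 3 differences is called the pMAG effect. Its median over members was −0.16 and 71 of 80 lay below 0, against a median of 0.00 and 49.5% of all probe sets, and a median of −0.11 and 65.2% of the 509 probe sets of mean 6 or more. The median over members was −0.07 without Δapn1/pMAG/pAPN1 replicate 2, −0.21 without its replicate 1 and −0.14 without WT/pMAG replicate 2. One member, *RPS29A*, was lower and 0 higher at the thresholds (1.58% and 1.89% of all probe sets), with −0.92 (SE 0.33, adjusted p = 0.187), and no member had an adjusted p under 0.05 (1.28% of all probe sets), while 2 had an unadjusted one (15.3%). The median by background was −0.28 in wild type (73 of 80 members below 0), 0.01 in Δapn1 (38 of 80) and −0.16 in Δapn1/pAPN1 (67 of 80). In all 3 backgrounds 30 of 80 members (37.5%) had a difference below 0, as did 19.6% of all probe sets.

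For *RPS29A* the pMAG difference was −2.28 in wild type, −0.27 in Δapn1 and −0.22 in Δapn1/pAPN1 (SE 0.56 each). Tested as an interaction, the difference in wild type minus that in Δapn1 was −2.01 (SE 0.80, adjusted p = 0.998), and minus that in Δapn1/pAPN1 it was −2.05 (SE 0.80, adjusted p = 0.999). Neither passed adjustment; 2 members had an unadjusted p under 0.05 in each of these tests, against 3.2% and 3.92% of all probe sets, and 0 an adjusted one.

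For pAPN1, averaged over Δapn1 with and without pMAG, the median was −0.13 and 58 of 80 members lay below 0, against 45.1% of all probe sets. The median rested on 1 array: it was 0.0028 without Δapn1/pMAG/pAPN1 replicate 2, the array with the lowest level of members, and −0.22 without replicate 1, and it was −0.03 with array weights. None passed the thresholds (0.523% of all probe sets were higher and 0.323% lower), none had an adjusted p under 0.05 (0.0615% of all probe sets), and 2 had an unadjusted p under 0.05 (5.21%): *RPS26B* with −0.58 (SE 0.17, adjusted p = 0.867), just under 1.5-fold, and *RPL29* with −0.46 (SE 0.18, adjusted p = 0.867). *RPS26B* read 6.28, 6.11 and 6.35 in Δapn1/pAPN1, against 6.65, 6.91 and 6.69 in Δapn1, so these groups were apart. In the presence of pMAG it read 6.30, 5.27 and 6.24 in Δapn1/pMAG/pAPN1, against 6.61, 6.78 and 6.37 in Δapn1/pMAG, and these were apart as well.

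Across the 6 strains together, limma's F test gave 3 members an unadjusted p under 0.05 (3.75%, where 9.56% of all probe sets had one) and none an adjusted p under 0.05 (0.4% of all probe sets). The 3 were *RPS29A* (adjusted p = 0.328), *RPL15B* (adjusted p = 0.395) and *RPS26B* (adjusted p = 0.46).

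The steadiest members were *RPS2* and *RPS3*, which border the mRNA entry channel, and *RPL28*, the site of cycloheximide resistance mutations, with SDs of 0.18, 0.19 and 0.22 over all 18 arrays. *RPS3*, for instance, read 10.02, 9.96 and 9.79 in WT/pMAG and 10.01, 10.02 and 10.02 in Δapn1, against 9.85, 10.39 and 10.31 in wild type. The median SD of members was 0.32, and 5 members had an SD over 1: *RPL7B* (1.46), *RPL7A* (1.25), *RPL38* (1.16), *RPL17B* (1.06) and *RPS29A* (1.04). Median SD was 0.38 among the probe sets with a mean of 6 or more.

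Isolated low readings were seen in several of the variable members. Of 1440 values (80 members on 18 arrays), 14 lay 2 or more log2 units from the member's median on the other arrays, and all 14 were low. They involved 13 members and 7 arrays, and 6 of them were on Δapn1/pMAG replicate 1, the array with the low *ACT1* 5′ signal: *RPL7A* read 2.35 there (7.60 and 7.50 on replicates 2 and 3), *RPL7B* 0.90 (5.25 and 5.37), *RPL13A* 4.54 (7.42 and 6.87), *RPP2A* 6.01 (9.34 on replicate 3), *RPS28B* 7.26 (10.04 and 9.63) and *RPL17A* 8.17 (10.69 and 10.51). On that array 8.45% of the probe sets of mean 6 or more departed by as much, and 7.5% of the members. Its median of members (8.60) was not low.

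The next array was WT/pMAG replicate 1, with 3 such members: *RPL38* read 3.82, against 8.12 and 8.46 on replicates 2 and 3 of the same strain, *RPS29A* 5.62 and *RPL22A* 7.61. *RPL38* had a fitted difference of −1.54 in WT/pMAG against wild type (SE 0.85, adjusted p = 0.569), a difference carried by that 1 array. On it 3.73% of bright probe sets and 3.75% of members departed, and its *ACT1* 5′ signal was 1.40 below the 3′ signal, within the range of the other arrays. *RPL7B* also read 0.40 on Δapn1/pAPN1 replicate 1, and the remaining low readings were 1 each of *RPL17B*, *RPL36B*, *RPL9A* and *RPS31*.

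**Figure D4:**
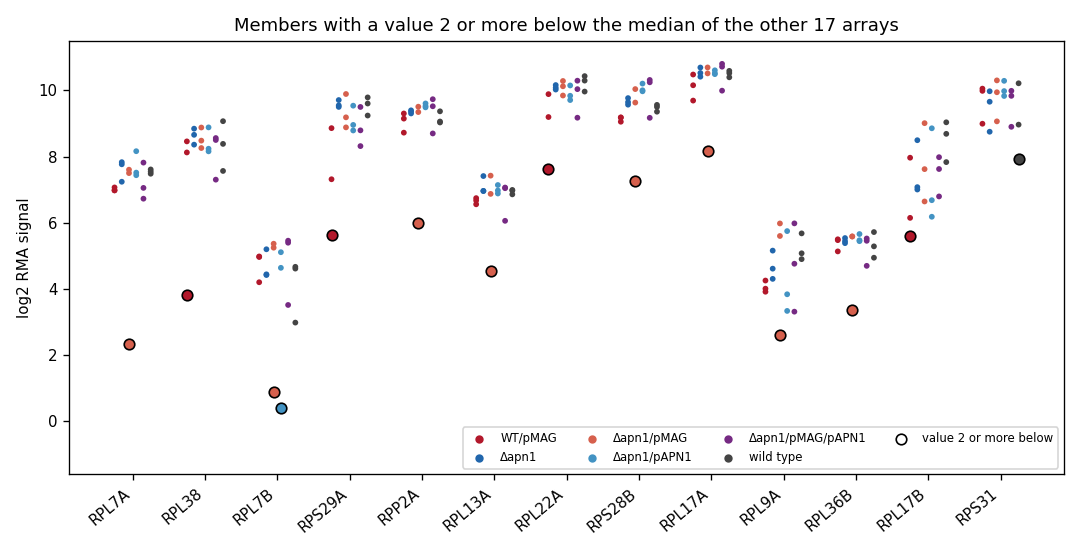
Log2 RMA signal (y axis) on all 18 arrays of the 13 members with a reading 2 or more below the median of the other arrays (x axis); small points are arrays coloured by strain and large outlined points the 14 low readings. Of the outlined points, 6 belong to Δapn1/pMAG replicate 1, including RPL7A at 2.35 and RPL7B at 0.90.

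*RPL7A*, a large subunit gene, had the lowest fitted difference of any member in Δapn1/pMAG. It read 2.35, 7.60 and 7.50 in Δapn1/pMAG, against 7.48, 7.61 and 7.54 in wild type, for a difference of −1.73 (SE 0.93, adjusted p = 0.76). Without Δapn1/pMAG replicate 1 the difference was 0.01.

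The A and B copies of 31 proteins could be compared, 62 genes in all; the remaining 18 members were genes without a measured sister copy. Since 2 probe sets cannot be set against each other in level, the difference A minus B on each array was followed across strains. In WT/pMAG against wild type, both copies lay on the same side of 0 in 28 of 31 pairs, 27 of them both below, with a median of −0.32 for A copies and −0.27 for B copies. With 30 of 31 A copies and 27 of 31 B copies below 0 there, most pairs share a side whether or not the copies are linked. In the pMAG effect 25 pairs had both copies below 0, where 30 A copies and 26 B copies were below 0. Copies shared a side in 19 pairs in Δapn1, 17 in Δapn1/pMAG, 17 in Δapn1/pAPN1 and 21 in Δapn1/pMAG/pAPN1. The median absolute difference between copies was 0.21 in WT/pMAG, where the median of all members was −0.28, and the largest was 1.74. It was 0.10 in Δapn1, 0.19 in Δapn1/pMAG, 0.20 in Δapn1/pAPN1 and 0.19 in Δapn1/pMAG/pAPN1.

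No pair had an adjusted p under 0.05 for A minus B in any comparison (limma, adjusted over a table of 6535 features that includes the 31 pairs). In the F test over 6 strains 1 pair, *RPS29*, had an unadjusted p under 0.05 (adjusted p = 0.501), where 9.52% of all features did. In WT/pMAG against wild type, *RPS29A* differed by −2.28 and *RPS29B* by −0.54, so that A minus B was −1.74 (SE 0.56, adjusted p = 0.286). *RPS29B* read 7.83, 7.61 and 7.43 in WT/pMAG, against 7.84, 8.37 and 8.29 in wild type. Both probe sets of this pair are of the _f_at kind. In WT/pMAG 3 of the 31 pairs had an unadjusted p under 0.05 (10.5% of all features). The number was 0 in Δapn1 (1.27%), 2 in Δapn1/pMAG (6.93%), 2 in Δapn1/pAPN1 (6.78%), 2 in the strain with both plasmids (7.45%) and 2 for the pAPN1 effect (5.22%).

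In 14 pairs both probe sets were plain. *RPL22A* differed by −1.33 in WT/pMAG and *RPL22B* by −0.17 (A minus B −1.16, SE 0.49, adjusted p = 0.429). *RPL22B*, with 5.23, 4.22 and 5.03 in WT/pMAG, against 5.42, 4.85 and 4.71 in wild type, overlapped between the strains. *RPL15* was the pair with the smallest p for the pMAG effect: *RPL15A* differed by −0.23 and *RPL15B* by 0.39, and A minus B by −0.62 (SE 0.19, adjusted p = 0.141). The probe set that names both copies had a pMAG effect of −0.74 (SE 0.38), opposite in sign to that of *RPL15B*. In that comparison 6 of 31 pairs had an unadjusted p under 0.05, against 15.3% of all features. *RPL16*, which encodes a protein of the large subunit surface, had A minus B values of −0.42 in Δapn1/pMAG (adjusted p = 0.603), −0.48 in Δapn1/pAPN1 (adjusted p = 0.486) and −0.33 in Δapn1/pMAG/pAPN1 (adjusted p = 0.657), all against the same wild type arrays (SE 0.15 each). *RPL16A* read 9.31, 9.05 and 9.23 in Δapn1/pAPN1, against 9.28, 9.59 and 9.38 in wild type, while *RPL16B* read 9.52, 9.59 and 9.60 in Δapn1/pAPN1, against 8.92, 9.50 and 9.49 in wild type.

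The *RPS26* copies differed in the same direction by unequal fitted amounts. In Δapn1/pMAG/pAPN1 against wild type, *RPS26A* differed by −0.35 and *RPS26B* by −0.80, and A minus B was 0.45 (SE 0.17, adjusted p = 0.547). *RPL13* and *RPS28* were the other pairs with the smallest p over the 6 strains, and in both the low reading of *RPL13A* or *RPS28B* on Δapn1/pMAG replicate 1 enters the difference. *RPL13A* and *RPL13B* were both low on that array (4.54 and 6.51).

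Over the 18 arrays the correlation between copies ran from −0.28 to 0.92 with a median of 0.61, and 18 of 31 pairs exceeded 0.5. The closest pairs were *RPL13* (0.92) and *RPS10* (0.90), and 3 pairs were below 0, *RPL17* (−0.28), *RPS28* (−0.17) and *RPS0* (−0.07). Δapn1/pMAG replicate 1, with its low *ACT1* 5′ signal, enters these values. On it A minus B was −0.83 for *RPL17* (1.49 to 4.56 on the other arrays) and 1.32 for *RPS28* (−2.39 to −1.11). For *RPS0* it was −0.99 (−3.73 to −2.68), and both copies of *RPL13* were low there. Correlations without that array were not computed. Copies share the arrays, and in 17 pairs at least 1 probe set is of a shared kind; among the 14 plain pairs the median was likewise 0.61.

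**Figure D5:**
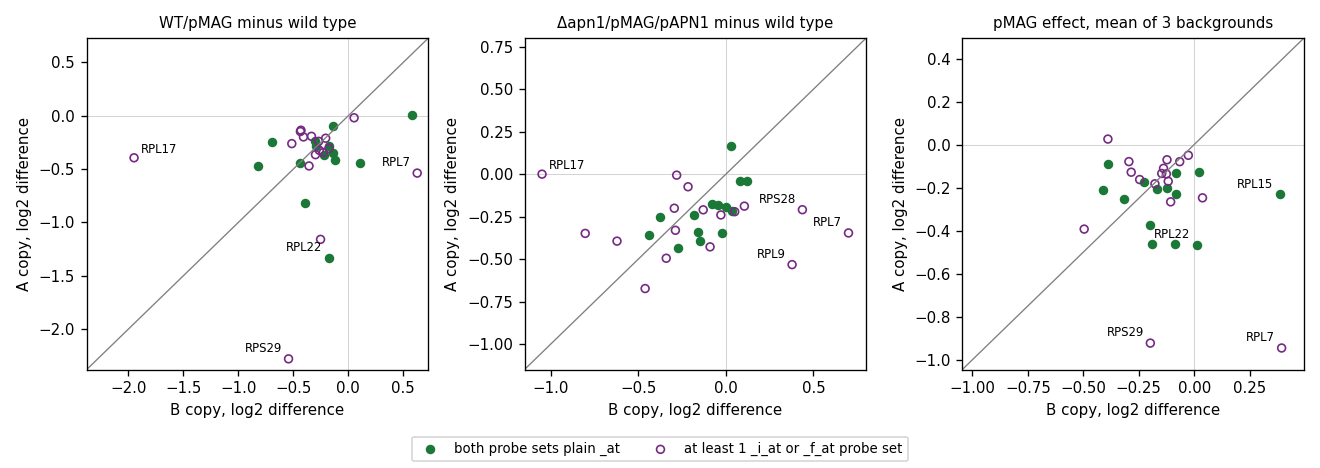
Fitted log2 difference of the A copy (y axis) against that of the B copy (x axis) for 31 pairs, in WT/pMAG minus wild type, Δapn1/pMAG/pAPN1 minus wild type, and the pMAG effect over 3 backgrounds; filled points are pairs with plain probe sets, open points the others, and the grey line marks equal differences. Most pairs lie in the lower left, 27 of 31 in the first panel, with RPS29 (−2.28 for A and −0.54 for B) and RPL22 (−1.33 and −0.17) below the line and RPL17 (−0.39 and −1.95) above it.

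Probe sets left out by the 1-gene rule were also read. The 59 probe sets that name several genes, for 37 ribosomal proteins, had a median difference of −0.34 in WT/pMAG against wild type, 52 of 59 below 0, with 8 lower and 0 higher at the thresholds (3.08% of the 9275 probe sets tested were lower) and none with an adjusted p under 0.05. Among the 8, the shared probe set of *RPS17A* and *RPS17B* read 7.38, 9.25 and 9.17 in WT/pMAG, against 9.47, 10.10 and 9.84 in wild type (difference −1.20, adjusted p = 0.318), and that of *RPL43A* and *RPL43B* 8.55, 7.22 and 8.89 in WT/pMAG, against 9.24, 9.77 and 9.81 in wild type (difference −1.38, adjusted p = 0.356). The low arrays differed between these genes, replicate 1 in the first and replicate 2 in the second. The second probe sets of members, 25 for 21 genes, had the sign of the chosen one in 23 cases in WT/pMAG, and the 2 exceptions were both probe sets of *RPL7A*. At the thresholds 4 of the 25 were lower and 0 higher, where 3.86% of all probe sets of 1 gene were lower and 2.14% higher. They read the same genes on the same arrays, and with 73 of 80 members below 0 most signs would match in any case.

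Genes that act around ribosomal protein expression were examined as lists. Of 14 measured regulators (*FHL1*, *IFH1*, *SFP1*, *RAP1*, the TOR kinases and others), 0 passed the thresholds in WT/pMAG and their median was 0.07. The kinase gene *YAK1*, 1 of the 14, was lower in Δapn1/pMAG/pAPN1, as were 1.58% of all probe sets. It read 2.75 ± 0.15 there and 3.61 ± 0.58 in wild type (SD, n = 3 each, difference −0.86, limma adjusted p = 0.565). Of 20 measured chaperones and importins of ribosomal proteins, 1 was lower in WT/pMAG, as were 3.86% of all probe sets. It was *RRB1*, the chaperone of Rpl3, with 2.31 ± 1.08 in WT/pMAG and 3.42 ± 0.21 in wild type (limma adjusted p = 0.377). None of 15 RNA polymerase I genes passed in any comparison.

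Translation factors act with the ribosome in each step of protein synthesis. Of 29 measured initiation, elongation and termination factors, 3 were lower and 0 higher in WT/pMAG, the median was −0.27 and 23 lay below 0, where 3.86% of all probe sets were lower, 2.14% higher and 48.7% below 0 (66.4% of those of mean 6 or more). The 3 were *TEF4*, a subunit of the elongation factor that recharges eEF1A (difference −0.77), the release factor gene *SUP45* and *CAF20*, whose product represses translation through the cap-binding protein, with adjusted p of 0.377 to 0.423. In Δapn1/pMAG 1 factor was higher and 1 lower (*HYP2* and *TEF4*), where 2.03% of all probe sets were higher and 1.35% lower. In Δapn1/pAPN1 2 were higher (*HYP2* and *SUI2*), against 2.51% of all probe sets. In Δapn1/pMAG/pAPN1 1 was higher (*HYP2*), against 1.81% of all probe sets, and 0 passed in Δapn1. *HYP2*, which encodes eIF5A, read 9.35, 9.72 and 9.62 in WT/pMAG, 10.19, 10.16 and 10.02 in Δapn1/pMAG, 9.90, 10.17 and 10.31 in Δapn1/pAPN1 and 10.27, 9.91 and 10.25 in Δapn1/pMAG/pAPN1, against 9.54, 9.54 and 9.15 in wild type. In Δapn1/pMAG, Δapn1/pAPN1 and Δapn1/pMAG/pAPN1 all arrays were above wild type, with differences of 0.71, 0.72 and 0.73 and adjusted p of 0.155, 0.188 and 0.159; the comparisons share the wild type arrays.

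Damage checkpoint targets were read on the same arrays. Of 9 measured genes, 4 were higher and 0 lower in WT/pMAG (2.14% of all probe sets were higher), 0 higher in Δapn1 (0.231%), 5 higher in Δapn1/pMAG (2.03%), 1 higher in Δapn1/pAPN1 (2.51%) and 5 higher in Δapn1/pMAG/pAPN1 (1.81%), and *HUG1*, an inhibitor of ribonucleotide reductase, read 6.31, 5.54 and 5.63 in WT/pMAG, against 1.03, 1.13 and 1.22 in wild type (difference 4.70, adjusted p = 0.0231). The 5.54 was read on WT/pMAG replicate 2, where *MAG1* was close to the level without the plasmid. Whether that array carried pMAG was not tested. The list of checkpoint targets was chosen with these results known.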

How the data were processed

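RNA of 18 yeast cultures was measured on S98 arrays, and the deposited log2 values had been made by the authors from the scanned arrays with RMA (background correction, quantile normalization and probe summary; version not given in the sources used here). The number of arrays, 3 per strain, limits the precision. Probe sets were named through the platform annotation with current RefSeq names: of 9335, 60 were controls, 2443 had no name, 328 had several and 6504 had 1.

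In R 4.3.3 with limma 3.58.1, lmFit and eBayes were run on the 6504 probe sets with 1 mean per strain (12 residual degrees of freedom), and every p was two-sided, with Benjamini-Hochberg adjustment over all of them. A minus B differences of 31 pairs were fitted as added features, 6535 in all. No p was adjusted over the members alone. The study's thresholds (1.5-fold or more, with p below 0.05 before adjustment) gave a second call; an unmoderated fit of the same comparisons is called the methods' test. Cultures are biological triplicates per the labels. Same-numbered arrays of Δapn1 and wild type deviated together (correlations of 0.331 to 0.372), which by the rule used pairs these 2 strains. In both, replicate 1 was in the low small RNA set and replicates 2 and 3 in the high set. A pairing and the small RNA sets therefore cannot be told apart here. In the other 4 strains at least 1 number had a correlation at or below 0.1. Members, lists and settings were chosen with earlier results of these data known. Named with values were the members past the thresholds, filled to 3 per comparison by the smallest p, those with the smallest F test p, the 6 pairs with the smallest F test p, the extremes of mean and SD, and up to 3 genes per list; other members are named where a count or an array singled them out after their values were seen. Alternatives covered the fit, normalization, filter, probe set choice, replicate block, small RNA sets and single arrays. The fit was tested on simulated data. Figures were drawn with matplotlib 3.10.9 in Python 3.11.15.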

Additional observations from a re-analysis of the deposited data

Results flagged for a closer look

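For *RPL15B*, the difference made by pAPN1 had opposite signs with and without pMAG. It was 0.24 in Δapn1/pAPN1 minus Δapn1 and −0.62 in Δapn1/pMAG/pAPN1 minus Δapn1/pMAG, a gap of 0.8584 on the log2 scale (limma interaction, adjusted p = 0.998). *RPL15B* read 5.09, 5.24 and 5.37 in Δapn1/pAPN1, against 4.77, 5.33 and 4.89 in Δapn1, and at most 5.24 in Δapn1/pMAG/pAPN1, against 6.11, 5.19 and 5.85 in Δapn1/pMAG. Groups overlapped in each pair.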

How the results depend on the processing

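Counts of members past the thresholds were small. Over counts and medians of members together, 56 of 544 settings moved a result and 488 did not. All 56 moves were of counts, by more than 1.5 times or to or from 0. The medians were judged by another rule, the SD of array medians within strains, and none moved by as much. For WT/pMAG against wild type the count of 3 became 5 with arrays centred on their median, 7 with array weights, 12 within the high small RNA set and 9 with the probe sets of several names, and was 2 (without wild type replicate 2) to 7 (without wild type replicate 1) when an array was left out. For Δapn1 against wild type, 0 became 2 within the high set. For Δapn1/pMAG against wild type, 0 became 1 with array weights and with the probe sets of several names, and 2 with the small RNA sets as a block. Leaving out an array gave 0 to 8 (8 without Δapn1/pMAG replicate 2). Its within-set counts are left out, since each rests on 1 array in a group. In the high set that was Δapn1/pMAG replicate 1, with the low *ACT1* 5′ signal, and in the low set wild type replicate 1. For Δapn1/pAPN1 against wild type, 0 became 4 with only the strains compared, 3 with array weights and 2 with the small RNA sets as a block. It became 1 without both doubted arrays, without replicate 1 of WT/pMAG and of Δapn1/pMAG, and with the probe sets of several names. Leaving out an array gave 0 to 1. For Δapn1/pMAG/pAPN1 against wild type, 1 became 2 with only the strains compared and with the probe sets of several names, and 14 without both doubted arrays (replicate 1 of Δapn1/pMAG and of Δapn1/pMAG/pAPN1); leaving out an array gave 0 (without its replicate 2) to 11 (without its replicate 1). The pMAG effect went to 2 with array weights and with the small RNA block, and 1 to 3 on leaving out an array. With plain probe sets it was 0, because *RPS29A*, its only member past the thresholds, has an _f_at probe set and was not in that list. The pAPN1 effect went to 1 after a further quantile normalization and without both doubted arrays, and 0 to 3 on leaving out an array. Adjusted calls in the 6-strain F test and for A minus B were 0 to 1 on leaving out an array (1 without WT/pMAG replicate 3). The cause of these changes was not tested. For most of these settings the share of all probe sets past the thresholds was not computed. A change in members and one over all probe sets therefore cannot be told apart there. With the probe sets of several names, the list counted was longer, since these were added to the members. The settings with the probe sets of several names and without replicate 1 of WT/pMAG and of Δapn1/pMAG were chosen after seeing the data.

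*RPL7A* in Δapn1/pMAG was the result that reversed: its difference was 0.005865 without Δapn1/pMAG replicate 1, alone or with replicate 1 of WT/pMAG or of Δapn1/pMAG/pAPN1, and 0.07 within the low set, and it ranged from −2.621 to 0.005865 on leaving out an array. Of 714 settings of 21 results for named members, 673 kept their direction and side of the thresholds, 28 came to pass them and 9 ceased to. Many of these settings leave out an array of a strain outside the comparison, where the fitted difference of a probe set cannot change. Medians of members kept their sign in each setting run for WT/pMAG (−0.40 to −0.09) and the pMAG effect (−0.21 to −0.07). The others changed sign in at least 1 setting: Δapn1 (−0.11 to 0.24), Δapn1/pMAG (−0.16 to 0.26), Δapn1/pAPN1 (−0.18 to 0.20), Δapn1/pMAG/pAPN1 (−0.36 to 0.07) and the pAPN1 effect (−0.22 to 0.0028, −0.22 also without both doubted arrays).

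The replicate number was used as a block over all 6 strains, so it also joined same-numbered arrays of strains whose arrays did not deviate together. A fit that pairs only Δapn1 with wild type was not run. With this block, members past the thresholds numbered 4 in WT/pMAG, 1 in Δapn1/pMAG/pAPN1, 1 for the pMAG effect and 0 in the other comparisons. No count moved by over 1.5 times. The methods' test gave the same counts at the thresholds and 0 adjusted calls among members in each of the 7 comparisons. Within-set comparisons where a strain has no array, and the fit of only the strains compared for the pMAG effect, the F test and A minus B, gave no value.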
